A study of Mus musculus with 29 samples.

Results

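The genes described here encode the interstitial extracellular matrix, the collagens, elastic fibre proteins, proteoglycans and glycoproteins that fill the space between cells, with the enzymes that process and crosslink collagen. They form a list of 40 symbols, drawn up by the role of the encoded proteins with no threshold on a measured value. Earlier results of these data were known when the list was chosen. The array annotation paired 37 of the 40 with at least 1 probe set of their own, among 18193 genes measured in all. Fbn1, Spp1 and Loxl2 were not analysed here. The 37 genes had 89 probe sets, and the probe set of highest mean signal stood for each gene. By role they comprised 6 fibrillar collagen chains, 7 other collagen chains, 7 matricellular and adhesive glycoproteins, 6 elastic fibre genes, 7 proteoglycans and 4 genes of collagen processing and crosslinking.

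The samples came from TH-MYCN mice of strain 129X1/SvJ, in which the tyrosine hydroxylase promoter drives MYCN in cells of the sympathoadrenal lineage and neuroblastoma arises. Primary abdominal tumours numbered 17 labelled caspase-8 deficient and 7 labelled caspase-8 wild type, and total bone marrow from 3 deficient and 2 wild type samples. Genotype is given for every sample as that of a TH-MYCN mouse, so the controls are labelled as carrying the transgene too. Caspase-8 is the initiator protease of death receptor signalling. The deleted segment of Casp8, the cells in which it was deleted, the age of the animals and whether any samples share an animal are not given in the sources used here. The p-values therefore reflect only how far these samples spread, which may in part be technical. Each sample was measured on 1 array, and values are log2 signals after RMA (background correction, quantile normalisation and summary of probes), on which a difference of 1 is 2-fold. Probe sets differ in brightness, so levels were compared between samples and never between genes.

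Fibroblasts, pericytes and bone-forming cells secrete much of the interstitial matrix. Fibrillar collagens assemble into fibres, type VI collagen forms beaded filaments near cells, and small leucine-rich proteoglycans such as decorin, lumican and biglycan bind collagen and help to set fibre size. Collagen chains fold with a chaperone in the endoplasmic reticulum, lose their propeptides outside the cell and are crosslinked by lysyl oxidases. In human neuroblastoma the amount of stroma differs widely between tumours and is part of their histological classification.

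Tissue labels were checked against marker genes. The mean log2 signal of 9 sympathoadrenal markers was 9.77 to 10.80 in tumours and 4.0 to 4.14 in marrow, and that of 10 blood cell markers 4.09 to 5.95 in tumours and 10.71 to 10.93 in marrow. Casp8 averaged 5.62 ± 0.44 (SD, n = 17) in deficient and 5.88 ± 0.57 (SD, n = 7) in wild type tumours, a difference of -0.26 (SE 0.20, limma adjusted p = 0.9997). In marrow it averaged 9.14 ± 0.12 (SD, n = 3) in deficient and 9.46 ± 0.23 (SD, n = 2) in wild type samples, and a probe set outside the deleted segment would not check the genotype. The mean of 6 skeletal muscle markers was 9.80 in deficient tumour 11, 8.28 in wild type tumour 3 and 7.38 in wild type tumour 7, and at most 5.15 in the other tumours. Sample titles carry numbers in a higher series (100 to 120), with 10 deficient tumours, 4 wild type tumours and all marrow samples, and a lower series (10 to 21), with 7 deficient and 3 wild type tumours. What the series stand for was not given in the sources used here.

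**Figure D1:**
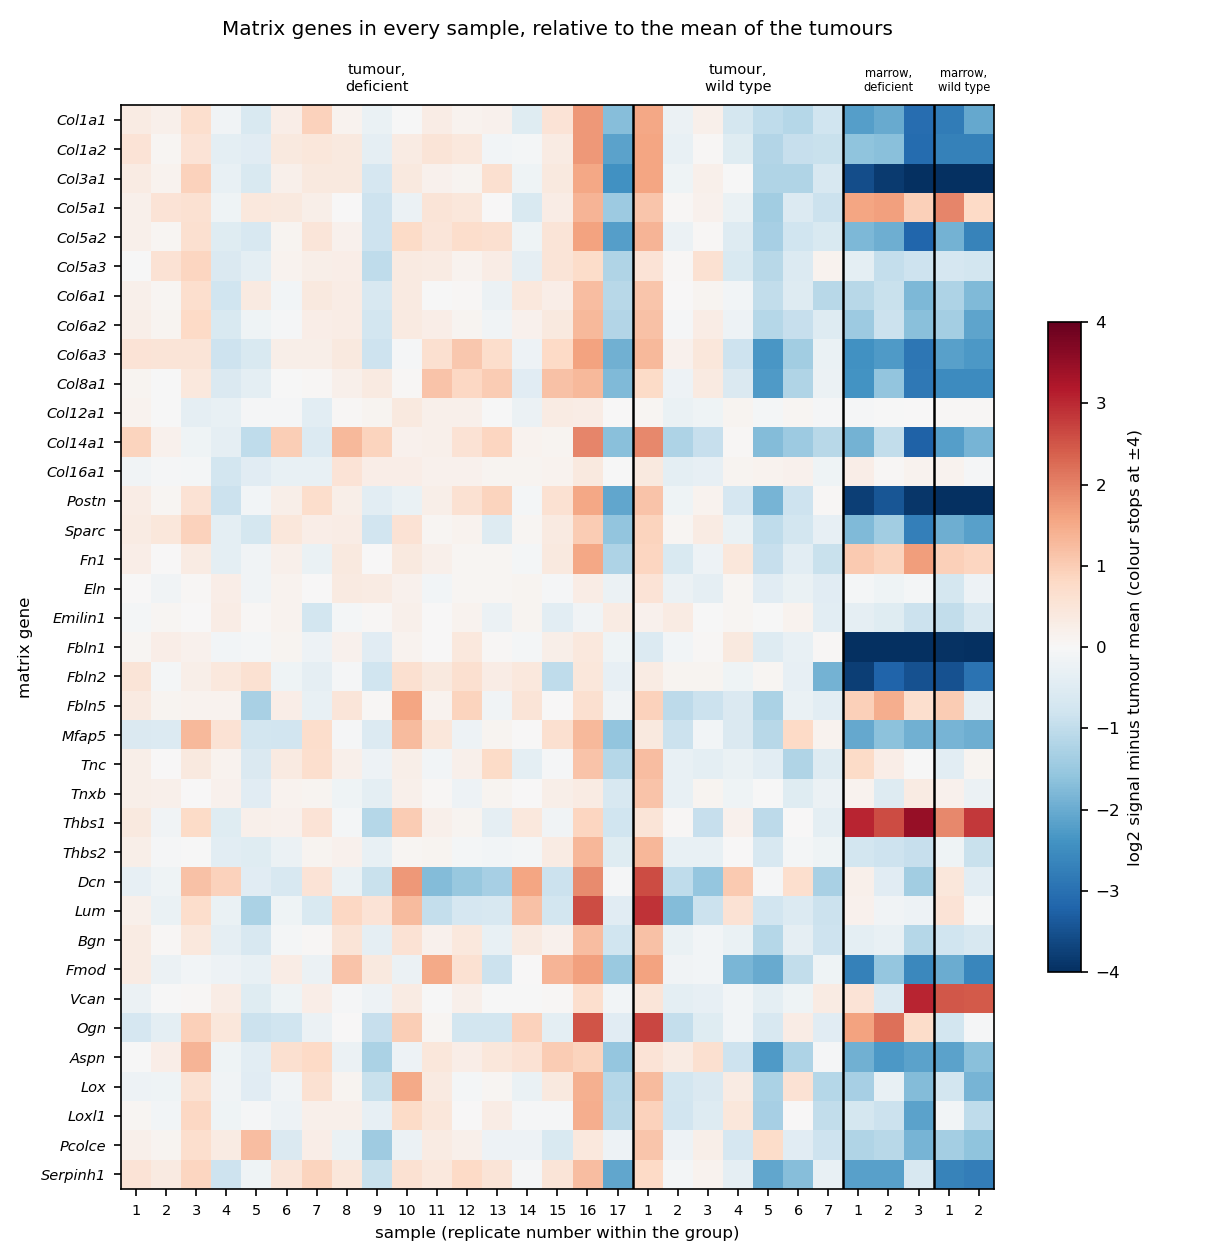
Log2 signal of the 37 matrix genes (one per line) in each sample (columns, replicate number within the group), as the difference from the gene's mean over the 24 tumours. Most genes are above that mean in deficient tumour 16 and wild type tumour 1 and below it in deficient tumour 17 and wild type tumour 5, and Col3a1, Postn, Fbln1 and Fbln2 are low and Thbs1 is high in all 5 marrow samples.

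Matrix genes differed widely between tumours. The mean log2 signal over the 37 genes was highest in deficient tumour 16, at 8.03, and in wild type tumour 1, at 7.92, and lowest in deficient tumour 17, at 5.82, and in wild type tumour 5, at 5.88. Deficient tumour 16 held the highest value of 19 genes and wild type tumour 1 that of 8, while deficient tumour 17 held the lowest value of 13 genes and wild type tumour 5 that of 9. Each end of the range thus held a tumour of each genotype. In these bulk samples, fewer cells of a type and less RNA per cell cannot be told apart.

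The small leucine-rich proteoglycans were among the genes that varied most. Dcn (decorin) had an SD of 1.22 over the 24 tumours, Lum (lumican) 1.14, Fmod (fibromodulin) 1.0 and Ogn (osteoglycin) 0.99. Their SDs stood at the 99.6, 99.4, 99.1 and 99.1 percentile of all genes. Dcn was 10.01 in wild type tumour 1, 9.30 in deficient tumour 16 and 9.15 in deficient tumour 10, and it was lowest, at 5.67, in deficient tumour 11, a 20.2-fold range. Lum spanned 24.5-fold, with 8.62 in wild type tumour 1 and 8.35 in deficient tumour 16 and no more than 7.0 in any other tumour. Ogn had the same 2 tumours on top, at 6.39 and 6.23, with the next at 4.68.

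Collagens varied nearly as much. Col14a1, which binds to the surface of fibrils, had an SD of 1.06 and a 12.9-fold range. Col3a1, the chain of type III collagen, spanned 15.7-fold, and Col1a2 and Col1a1, the chains of type I collagen, 14.5-fold and 10.8-fold, all with deficient tumour 17 at the bottom. In all, 29 of the 37 genes had an SD above the 95 percentile of all genes. The least variable were Col12a1, a fibril-associated collagen (SD 0.21, 1.73-fold range), Emilin1, a glycoprotein of elastic fibres (0.25), and Eln, elastin itself (0.26). These are SDs of the probe set used, and for Col12a1 another probe set had an SD of 0.64 in deficient and 0.82 in wild type tumours.

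Most matrix genes were high or low in the same tumours, described here over the same 24 arrays. The median Pearson's r over the 666 pairs of matrix genes was 0.55, against 0.01 over all gene pairs, and 288 pairs (43.2%) reached 0.6, against 0.863% of all pairs. The median was 0.64 within the 14 tumours of the higher title number series and 0.61 within the 10 of the lower. It was 0.53 within deficient and 0.60 within wild type tumours. Col1a2, Col5a2, Col3a1 and Col1a1 had the highest medians with the other genes, 0.78, 0.78, 0.77 and 0.76. The biglycan gene Bgn followed at 0.75, Col6a2, a chain of type VI collagen, at 0.74, and Fn1 (fibronectin) at 0.73.

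Other genes kept apart from this pattern. Emilin1 had a median r of -0.14 and its lowest value, -0.45, with Postn (periostin). Dcn had a median of 0.31, and its highest r was 0.83, with Ogn, and 0.79 with Lum. Fbln1 and Fbln2 (fibulins 1 and 2), Pcolce, which enhances removal of the collagen propeptide, Col16a1 and Col12a1 had medians between 0.16 and 0.32. Lox and Loxl1, both lysyl oxidases, had an r of 0.92 with each other.

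**Figure D2:**
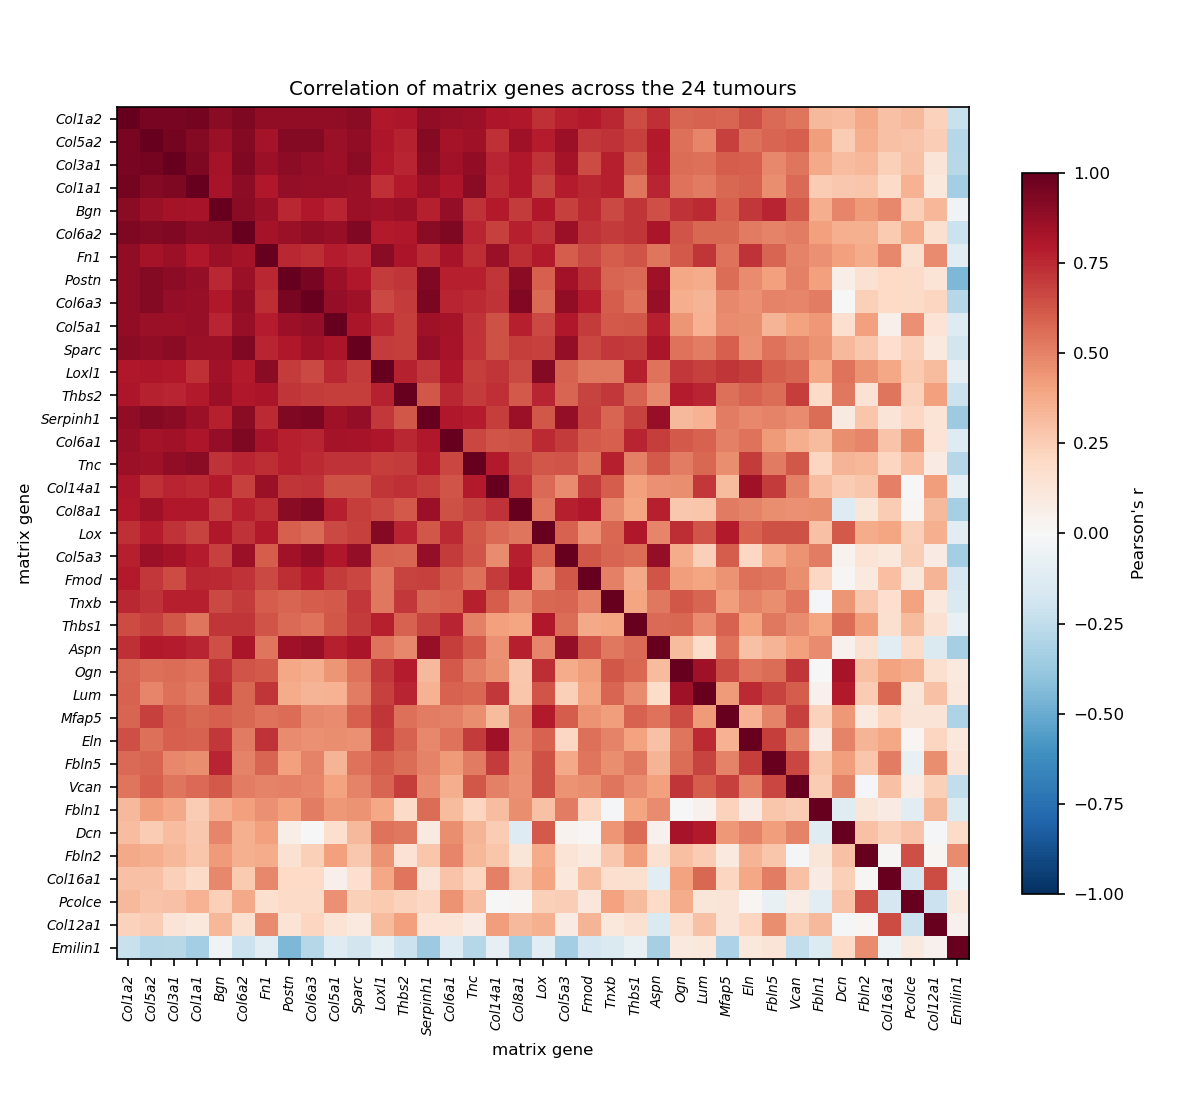
Pearson's r of log2 signal between each pair of the 37 matrix genes across the 24 tumours, ordered by the median r with the other genes (colour from -1 to 1). Col1a2, Col5a2, Col3a1 and Col1a1 fill the upper left with r up to 0.96, with Col5a1 and Col5a3 further down. Dcn has its highest values with Ogn (0.83) and Lum (0.79), and Emilin1, on the last line, has a median of -0.14.

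The 250 bases upstream of the start of 4 genes are shown because Col1a2, Col3a1 and Bgn moved together across tumours (r of 0.95 between Col1a2 and Col3a1, and 0.90 between Bgn and Col1a2) and because Fbln1 had the lowest median r of the genes with such a window (0.32). They are RefSeq sequences of build GRCm38.p6, all on the plus strand. Capitals mark the letters of the TATA box, CCAAT, the GC box and the E-box at any position on either strand.
Col1a2 (chr6:4505368-4505617): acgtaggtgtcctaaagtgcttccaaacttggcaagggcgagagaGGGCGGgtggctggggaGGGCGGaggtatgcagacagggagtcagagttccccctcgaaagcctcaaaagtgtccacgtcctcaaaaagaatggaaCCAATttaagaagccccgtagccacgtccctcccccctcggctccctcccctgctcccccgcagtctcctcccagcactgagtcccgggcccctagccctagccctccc
Col3a1 (chr1:45311288-45311537): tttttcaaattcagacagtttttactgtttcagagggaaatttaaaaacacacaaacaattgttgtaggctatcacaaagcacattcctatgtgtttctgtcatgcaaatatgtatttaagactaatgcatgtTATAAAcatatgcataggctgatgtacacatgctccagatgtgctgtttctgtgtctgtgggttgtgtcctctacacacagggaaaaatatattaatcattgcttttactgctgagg
Bgn (chrX:73483351-73483600): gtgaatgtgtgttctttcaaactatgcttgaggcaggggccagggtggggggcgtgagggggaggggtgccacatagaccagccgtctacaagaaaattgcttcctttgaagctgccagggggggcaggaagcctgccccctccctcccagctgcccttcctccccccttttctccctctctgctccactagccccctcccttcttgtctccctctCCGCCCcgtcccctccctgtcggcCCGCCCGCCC
Fbln1 (chr15:85205699-85205948): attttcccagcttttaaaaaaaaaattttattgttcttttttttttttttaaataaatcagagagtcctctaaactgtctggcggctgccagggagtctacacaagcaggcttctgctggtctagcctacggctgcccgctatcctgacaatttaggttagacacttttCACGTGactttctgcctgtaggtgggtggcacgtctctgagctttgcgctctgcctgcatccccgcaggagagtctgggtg
RefSeq windows were listed for 25 of the matrix genes and for 27025 genes in all, and those used here, for 16 matrix genes and 19827 genes in all, end where the listed span of the gene begins. Within these windows, 4 motifs were searched by their letters alone, at any position and on both strands. Whether a match works as the element it is named for was not tested. TATAAA (the TATA box) was found in 5 of the 16 windows, among them those of Col3a1, Ogn and Tnc, and in 14.9% of all. CCAAT was found in 4 of the 16 and in 34.4% of all, and GGGCGG (the GC box) in 7 of the 16 and in 26.8% of all. The E-box CACGTG was found in 1, that of Fbln1, and in 5.57% of all. Col1a2 held 1 CCAAT and 2 GC boxes, Bgn held 3 GC boxes, of which 2 overlap, and Col3a1 held 1 TATAAA. Col1a2 and Col3a1 thus shared none of these letters in this window, and G and C made up 62.0% and 35.2% of their bases.

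Some of the gene pairs of high r are neighbours on the chromosome. In GRCm38.p6, Col3a1 and Col5a2 lie 24.6 kb apart on chromosome 1 (r = 0.96), Col6a2 and Col6a1 85.2 kb apart on chromosome 10 (r = 0.94), and Dcn and Lum 47.3 kb apart on chromosome 10 (r = 0.79). Aspn (asporin) and Ogn lie 40.5 kb apart on chromosome 13 with an r of 0.32.

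The relation of Col1a1 to 11 other genes, and of Fn1 to Pecam1, was tested across the 24 tumours by two-sided permutation, with p-values adjusted over the 12 pairs. Col1a1 followed Col1a2 (r = 0.96, rho = 0.92), Col3a1 (0.93, 0.89), Tnc, the gene of tenascin-C (0.90, 0.82), Postn (0.88, 0.87), Serpinh1, the collagen chaperone (0.85, 0.87), and Fn1 (0.80, 0.63). The permutation p of each r was 1e-05, the smallest that 100000 resamples can give, and 1.71e-05 after adjustment. Adjusted p-values of rho ran from 3e-05 to 0.00163, the last for Fn1. Without the 2 tumours farthest from the Col1a1 median these r were 0.65 to 0.93, and all 6 pairs passed within each title number series. Col1a1 and Dcn had an r of 0.27 (adjusted permutation p = 0.206, rho = 0.08, adjusted permutation p = 0.722), 0.05 in the higher and 0.70 in the lower series.

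Genes of stromal, vascular and tumour cells were set against Col1a1 in the same family. Pdgfrb, a growth factor receptor of pericytes and fibroblasts, had an r of 0.79 (rho = 0.77, adjusted permutation p = 1.71e-05 and 4e-05), 0.77 in the higher and 0.84 in the lower series. Rgs5, a pericyte gene, had an r of 0.63 (rho = 0.66, adjusted permutation p = 0.00139 and 0.000994), 0.67 in the higher series and 0.52 (adjusted permutation p = 0.136) in the lower. Th, the tyrosine hydroxylase of the tumour cells, ran against Col1a1, with an r of -0.61 (rho = -0.59, adjusted permutation p = 0.00201 and 0.0034), -0.45 without the 2 farthest tumours, -0.79 in the higher series and -0.41 (adjusted permutation p = 0.236) in the lower.

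Pecam1, an endothelial adhesion molecule, was less steady. Its r with Col1a1 was 0.43 (rho = 0.51, adjusted permutation p = 0.0444 and 0.0149), 0.66 without the 2 farthest tumours, 0.13 (adjusted permutation p = 0.729) in the higher and 0.70 in the lower series. Its r with Fn1 was 0.38 (rho = 0.39, adjusted permutation p = 0.0733 and 0.0674), 0.66 without the 2 tumours farthest from the Fn1 median, 0.27 in the higher and 0.90 in the lower series.

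Tumours were then set against bone marrow. Collagens of types I, III, VI, VIII and XIV, periostin and fibulins 1 and 2 were higher in tumours, and thrombospondin 1, versican, fibronectin, fibulin-5 and the Col5a1 chain were lower. Of these genes, Col14a1, Col6a3 and Fbln5 did not pass with wild type samples alone, and Col14a1 did not with the mean of its probe sets. In limma, 13899 genes (76.4%) reached an adjusted p under 0.05, 34.2% higher and 42.2% lower in tumours. Of the 37 matrix genes 29 passed (78.4%), a share near that of all genes, with 24 higher (64.9%) and 5 lower (13.5%) in tumours. At 2-fold or more, 19 were higher (51.4%) and 4 lower (10.8%), against 16.8% and 12.6% of all genes. The median difference was 1.14 over the matrix genes and -0.10 over all genes, and with the mean of each gene's probe sets it was 0.53. All 24 tumours lay above all 5 marrow samples for 6 genes, Col1a1, Col3a1, Postn, Fbln1, Fbln2 and Mfap5 (20.9% of all genes), and below them for 1, Thbs1 (16.9% of all genes).

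Among fibrillar collagens 5 of 6 were higher in tumours. Col3a1 ran from 8.28 over a median of 10.85 to 12.26 in tumours, and was 7.15, 6.88 and 5.46 in deficient and 6.67 and 6.16 in wild type marrow. The tissues did not overlap, and the difference was 4.18 (SE 0.41, limma adjusted p = 2.4e-10), or 18.1-fold. Col1a1 ran from 5.84 over 7.67 to 9.27 in tumours, and was 5.34, 5.53 and 4.51 in deficient and 4.73 and 5.49 in wild type marrow. Its difference was 2.33 (SE 0.36, limma adjusted p = 1.47e-06), also without overlap. Col1a2 ran from 8.54 over 10.74 to 12.39 in tumours, and was 9.06, 9.01 and 7.59 in deficient and 7.97 and 7.96 in wild type marrow. Deficient tumour 17 alone fell within the marrow range of Col1a2, and the difference was 2.32 (SE 0.39). Col5a3, a minor chain of type V collagen, was higher by 0.68 and passed in 5 of 14 alternative settings.

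Col5a1 was the fibrillar chain that was lower in tumours, while Col5a2, which joins it in type V collagen, was higher by 2.21. Col5a1 ran from 5.38 over 6.96 to 8.2 in tumours, and was 8.42, 8.50 and 7.79 in deficient and 8.81 and 7.64 in wild type marrow. The tissues overlapped at the top of the tumour range, and the difference was -1.46 (SE 0.33, limma adjusted p = 0.000218). Its 2 other probe sets differed in the same direction, by -1.95 and -1.06.

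Of the 7 other collagens 5 were higher in tumours, Col6a3 by 2.27, Col8a1, a network-forming collagen of vessels, by 2.25, Col14a1 by 1.84, Col6a2 by 1.47 and Col6a1 by 1.32. Col12a1 and Col16a1 did not pass, at -0.03 (95% interval -0.24 to 0.18) and -0.10 (-0.40 to 0.19). Another Col12a1 probe set, with a mean of 5.69 in deficient and 5.15 in wild type tumours against 4.14 in deficient and 4.95 in wild type marrow, differed by 0.88. For Col14a1 the 2 other probe sets gave 0.15 and -0.56, and it did not pass with the mean of its probe sets (0.48) or with wild type samples alone.

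**Figure D3:**
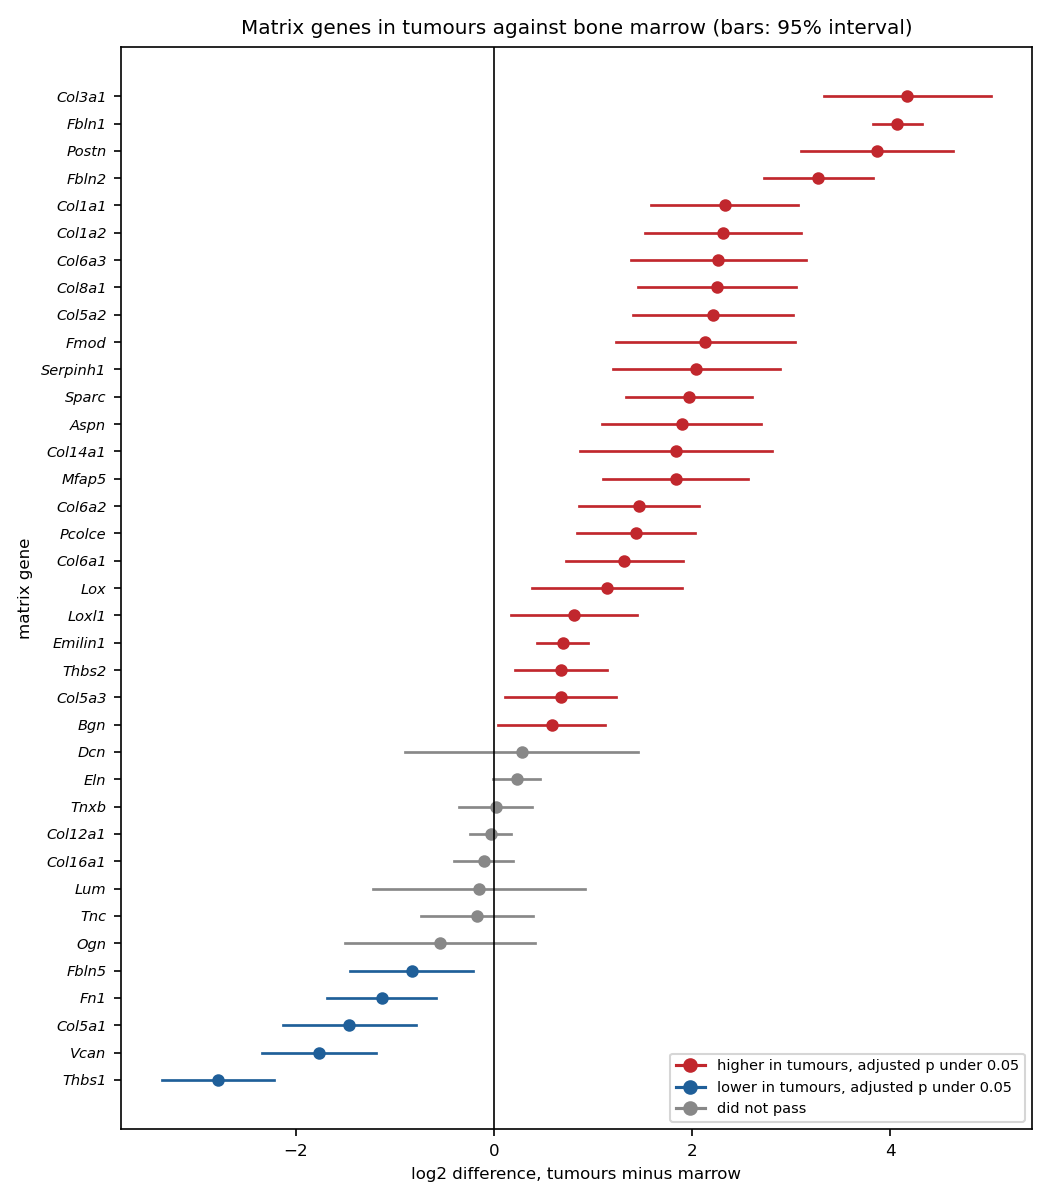
Log2 difference of each of the 37 matrix genes, tumours minus marrow, with the 95% interval from limma. Col3a1 is highest at 4.18 and Thbs1 lowest at -2.78, and the 8 genes in grey did not pass an adjusted p of 0.05.

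The glycoproteins went both ways. Postn, a protein of collagen-rich and remodelled tissue, ran from 6.35 over 8.54 to 9.97 in tumours, and was 4.65, 4.99 and 4.53 in deficient and 4.12 and 4.31 in wild type marrow. The tissues did not overlap, and the difference was 3.87 (SE 0.38, limma adjusted p = 1.88e-10). Sparc, a collagen-binding protein, ran from 8.37 over 10.06 to 10.98 in tumours, and was 8.17, 8.55 and 7.22 in deficient and 7.98 and 7.78 in wild type marrow. Deficient tumour 17 was the tumour within the marrow range, and the difference was 1.97 (SE 0.31, limma adjusted p = 1.81e-06), with 2.43 by a bright and -0.42 by a dim further probe set.

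Thbs1, which platelets store and release and which can activate latent TGF-beta, was lower in tumours. It ran from 5.95 over 7.19 to 8.14 in tumours, and was 10.17, 9.72 and 10.59 in deficient and 9.04 and 9.93 in wild type marrow, without overlap. The difference was -2.78 (SE 0.28, limma adjusted p = 2.62e-10), a 6.88-fold ratio, and -2.51 by a second probe set. All 4 megakaryocyte markers measured were lower in tumours too, with a list mean of 4.80 to 6.20 in tumours and 9.86 to 10.78 in marrow, and their part in the result was not tested. Thbs2, a relative of Thbs1, was higher in tumours by 0.68 (limma adjusted p = 0.00833), and did not pass without wild type marrow 2.

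Fn1, which links cells to collagen, was lower in tumours. It ran from 7.79 over 9.07 to 10.56 in tumours, and was 10.08, 9.93 and 10.69 in deficient and 9.97 and 9.88 in wild type marrow. Deficient tumour 16 was the tumour within the marrow range, and the difference was -1.13 (SE 0.27, limma adjusted p = 0.000409), with -1.86 by a second probe set. Tnc ran from 4.12 over 5.32 to 6.57 in tumours, and was 6.10, 5.59 and 5.31 in deficient and 4.90 and 5.45 in wild type marrow. These overlapped, and the difference of -0.17 (95% interval -0.73 to 0.40) did not pass, and neither did that of Tnxb, the gene of tenascin-X, at 0.02.

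Among elastic fibre genes 4 of 6 were higher in tumours and 1 was lower. Fbln1, a glycoprotein of elastic fibres and basement membranes, ran from 8.12 over 8.70 to 9.09 in tumours, and was 4.47, 4.26 and 4.44 in deficient and 4.71 and 4.68 in wild type marrow. The difference was 4.07 (SE 0.12, limma adjusted p = 9.58e-23), or 16.8-fold, and 2 other probe sets gave 1.92 and -0.23, so that its size differed between probe sets. Fbln2 ran from 5.83 over 7.82 to 8.36 in tumours, and was 3.95, 4.52 and 4.22 in deficient and 4.22 and 4.78 in wild type marrow, a difference of 3.28 (SE 0.27, limma adjusted p = 4.24e-12). Mfap5, a microfibril protein, was higher in tumours by 1.84 and Emilin1 by 0.70. Eln did not pass, at 0.23 (95% interval -0.01 to 0.47).

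Fbln5, which guides elastin onto microfibrils, was lower in tumours. It ran from 4.36 over 5.75 to 7.23 in tumours, and was 6.62, 7.11 and 6.31 in deficient and 6.68 and 5.31 in wild type marrow. The tissues overlapped, and the difference of -0.83 (SE 0.30, limma adjusted p = 0.0151) was -0.48 and did not pass without wild type marrow 1.

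Proteoglycans were divided. Fmod, Aspn and Bgn were higher in tumours, by 2.14, 1.9 and 0.59, and Bgn (limma adjusted p = 0.0468) passed in 5 of 14 alternative settings. The 5 other probe sets of Fmod gave 0.06 to 0.44, and their mean with the one used 0.53, while the other of Aspn gave 2.53. Neither Fmod nor Aspn passed with wild type samples alone. Vcan (versican, a large proteoglycan that binds hyaluronan) ran from 3.42 over 3.88 to 4.56 in tumours, and was 4.45, 3.34 and 6.94 in deficient and 6.37 and 6.33 in wild type marrow. Deficient marrow 1 lay within and deficient marrow 2 below the tumour range, while the other marrow samples lay above it. The difference was -1.76 (SE 0.28, limma adjusted p = 2.33e-06). That fit shares its variance over the groups, most of whose samples are tumours. Vcan had an SD of 1.84 in deficient marrow, against 0.26 in deficient and 0.35 in wild type tumours. Its SE and p therefore do not measure the spread within deficient marrow. Dcn ran from 5.67 over 7.19 to 10.01 in tumours, and was 7.62, 6.97 and 6.03 in deficient and 7.85 and 6.98 in wild type marrow, so that marrow lay inside the tumour range. Dcn, Lum and Ogn did not pass, at 0.28 (95% interval -0.89 to 1.46), -0.15 (-1.22 to 0.93) and -0.54 (-1.50 to 0.41).

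All 4 processing and crosslinking genes were higher in tumours, Serpinh1 by 2.05, Pcolce by 1.43, Lox by 1.14 and Loxl1 by 0.81. Without wild type marrow 2, Lox and Loxl1 did not pass. Of the 29 calls 19 (15 higher, 4 lower) kept direction and threshold in each alternative setting run for that gene. With wild type samples alone 19 genes passed, all among the 29, and Aspn, Bgn, Col14a1, Col5a3, Col6a3, Fbln5, Fmod, Lox, Loxl1 and Thbs2 did not.

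**Figure D4:**
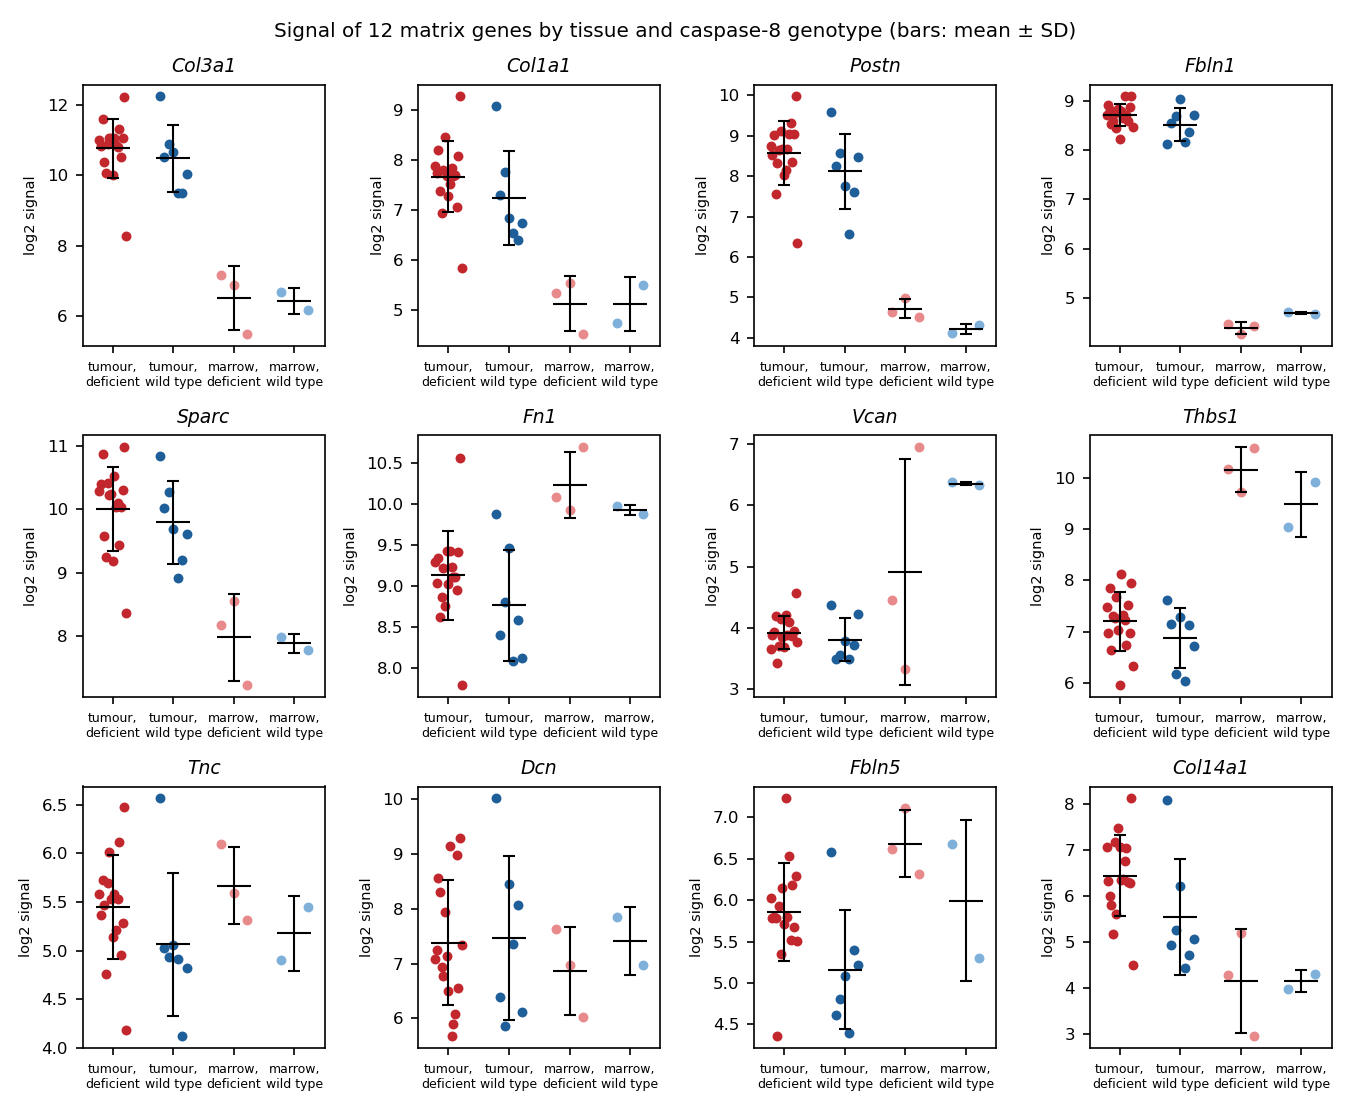
Log2 signal of 12 matrix genes in each sample (points), by tissue and caspase-8 genotype, with the mean and SD of each group as black bars. Tumours lie above marrow without overlap for Col3a1, Col1a1, Postn and Fbln1 and below it for Thbs1, and deficient and wild type tumours overlap in each panel.

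Other matrix and stromal genes were counted in the same fit, in which 34.2% of all genes were higher and 42.2% lower in tumours. Of 24 collagen synthesis and secretion genes 11 were higher and 8 lower in tumours (median 0.02), with Plod2, a collagen lysyl hydroxylase, at 4.21, P3h4 at 2.83 and Tmem38b, an ion channel of the endoplasmic reticulum, at -2.51. Of 44 further interstitial matrix genes 18 were higher and 14 lower (median 0.23), with Ncan (neurocan, a proteoglycan of nervous tissue) at 5.15, Mfap2 at 3.39 and Ibsp (bone sialoprotein) at -5.17. Of 15 fibroblast markers 4 were higher and 8 lower (median -0.27), with Thy1 at 1.82, S100a4 at -2.85 and Pi16 at -2.0. Of 12 pericyte and smooth muscle markers 6 were higher and none lower (median 0.87), with Rgs5 at 3.30, Tagln at 3.16 and Notch3 at 1.55. The list mean was 5.73 to 7.55 in tumours and 5.42 to 5.72 in marrow for pericyte and smooth muscle markers, and 4.84 to 5.80 in tumours and 5.17 to 5.70 in marrow for fibroblast markers. Their part in the matrix differences was not tested.

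Within tumours, caspase-8 deficient samples were set against wild type, the comparison that the labels set up. No matrix gene passed the test. Limma passed none of the 18193 genes (0.0%), with 583 (3.2%) at an unadjusted p under 0.05. Among the matrix genes 33 of 37 (89.2%) had a higher mean in deficient tumours, against 51.9% of all genes, the median difference was 0.32 against 0.0042 over all genes, and 3 genes had an unadjusted p under 0.05. Every adjusted p was 0.9997. These genes moved together across the tumours (median r of 0.55). Counts of genes here and below are thus not counts of independent observations, and were not tested.

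Fbln5 had the smallest p. It ran from 4.36 over 5.80 to 7.23 in deficient tumours and from 4.40 over 5.08 to 6.58 in wild type tumours. A single deficient tumour lay above and a single one below the wild type range, and the difference was 0.70 (SE 0.27, 95% interval 0.16 to 1.25, limma unadjusted p = 0.0138). Eln ran from 5.68 over 5.99 to 6.28 in deficient and from 5.46 over 5.64 to 6.45 in wild type tumours, a difference of 0.24 (SE 0.11, limma unadjusted p = 0.0321). Wild type tumour 1 held its highest value, and all deficient tumours lay within the wild type range. The dimmer probe set of Eln differed by -0.001, and that of Fbln5 by 0.198.

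Col14a1 ran from 4.50 over 6.36 to 8.13 in deficient and from 4.44 over 5.07 to 8.10 in wild type tumours, a difference of 0.91 (SE 0.42, limma unadjusted p = 0.0411). Serpinh1 ran from 5.08 over 7.64 to 8.4 in deficient and from 5.10 over 6.86 to 7.95 in wild type tumours, a difference of 0.72 (SE 0.37, limma unadjusted p = 0.0621). Medians of both were higher in deficient tumours, and the ranges overlapped over nearly their whole length. Other probe sets of Col14a1 differed by 0.447 and -0.041, and that of Serpinh1 by 0.344.

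The main collagens and glycoproteins differed less. Col1a1 ran from 5.84 over 7.70 to 9.27 in deficient and from 6.38 over 6.83 to 9.08 in wild type tumours, a difference of 0.43 (95% interval -0.25 to 1.11). Col3a1 ran from 8.28 over 10.89 to 12.24 in deficient and from 9.50 over 10.53 to 12.26 in wild type tumours, a difference of 0.29 (-0.47 to 1.04). Each pair of ranges overlapped, with the highest 2 values in deficient tumour 16 and wild type tumour 1. Postn ran from 6.35 over 8.66 to 9.97 in deficient and from 6.58 over 8.25 to 9.58 in wild type tumours, a difference of 0.45 (-0.28 to 1.17). Fn1 ran from 7.79 over 9.11 to 10.56 in deficient and from 8.09 over 8.59 to 9.87 in wild type tumours, a difference of 0.36 (-0.14 to 0.87). The lowest and highest values of both were those of deficient tumours 17 and 16.

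Sparc ran from 8.37 over 10.22 to 10.98 in deficient and from 8.92 over 9.69 to 10.84 in wild type tumours, a difference of 0.22 (-0.36 to 0.79). Tnc ran from 4.18 over 5.53 to 6.48 in deficient and from 4.12 over 4.93 to 6.57 in wild type tumours, a difference of 0.38 (-0.13 to 0.90). Dcn ran from 5.67 over 7.14 to 9.30 in deficient and from 5.85 over 7.35 to 10.01 in wild type tumours, a difference of -0.08 (-1.17 to 1.0). Dcn was 1 of the 4 genes with a value below 0, with Ogn (-0.06), Emilin1 (-0.05) and Tnxb (-0.004).

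A few tumours moved these values. Without wild type tumour 1, 36 of 37 genes were higher in deficient tumours, 15 had an unadjusted p under 0.05 and the median was 0.55, with none past the adjusted threshold in limma. Over all genes in that fit 52.3% were higher and 4.4% had an unadjusted p under 0.05. Without wild type tumour 5 the median was 0.17. The 3-prime minus 5-prime signal of control probe sets, a measure of RNA degradation, was 0.761 ± 0.175 (SD, n = 17) in deficient and 0.616 ± 0.145 (SD, n = 7) in wild type tumours, and with it as a covariate the median was 0.33. Without the 3 tumours of high skeletal muscle signal it was 0.28.

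The genotype difference was also taken within each title number series. In the higher series 36 of 37 genes were higher in deficient tumours with a median of 0.65, against 55.0% of all genes, and 14 had an unadjusted p under 0.05, against 7.59% of all genes. In the lower series 12 of 37 were higher, against 47.2% of all genes, the median was -0.18, and none had an unadjusted p under 0.05, against 1.8% of all genes. No matrix gene passed the adjusted threshold within either series. Tested as an interaction in limma, the difference between the series passed for none of the 18193 genes (0.0%), with 933 (5.13%) at an unadjusted p under 0.05, 7 of them matrix genes. It was above 0 for 34 of 37 matrix genes (91.9%), against 56.1% of all genes, with a median of 0.80 against 0.028 over all genes. Without wild type tumour 1, which belongs to the lower series, the median was 0.23. Markers of several cell types were above 0 in this difference too, against 56.1% of all genes. Of pericyte and smooth muscle markers 12 of 12 were (median 0.72, 4 at an unadjusted p under 0.05, Rgs5 at 1.39 and Notch3 at 0.90). Of endothelial markers 12 of 12 were (median 0.44), of skeletal muscle markers 6 of 6 (median 0.98) and of macrophage markers 10 of 12 (median 0.32). Of 15 fibroblast markers 9 were (median 0.26), near the share of all genes. Of sympathoadrenal markers 3 of 9 were, and of Schwann cell and megakaryocyte markers 1 of 4 each. Their part in the matrix values was not tested.

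Fmod had the smallest p of this interaction. In the higher series it averaged 6.01 ± 1.05 (SD, n = 10) in deficient and 4.34 ± 0.84 (SD, n = 4) in wild type tumours, and in the lower series 5.54 ± 0.27 (SD, n = 7) in deficient and 6.06 ± 1.0 (SD, n = 3) in wild type tumours. The genotype difference was thus 1.66 in the higher and -0.52 in the lower series, and their difference 2.18 (SE 0.72, limma unadjusted p = 0.00598, adjusted p = 0.921). Col8a1 had 1.45 in the higher and -0.38 in the lower series (difference 1.83, SE 0.65), and Col6a3 1.42 and -0.55 (1.98, SE 0.72), with the same adjusted p. For Fbln5 the genotype difference was above 0 in both, at 1.03 and 0.24, and for Thbs1 it was 0.32 and 0.33.

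**Figure D5:**
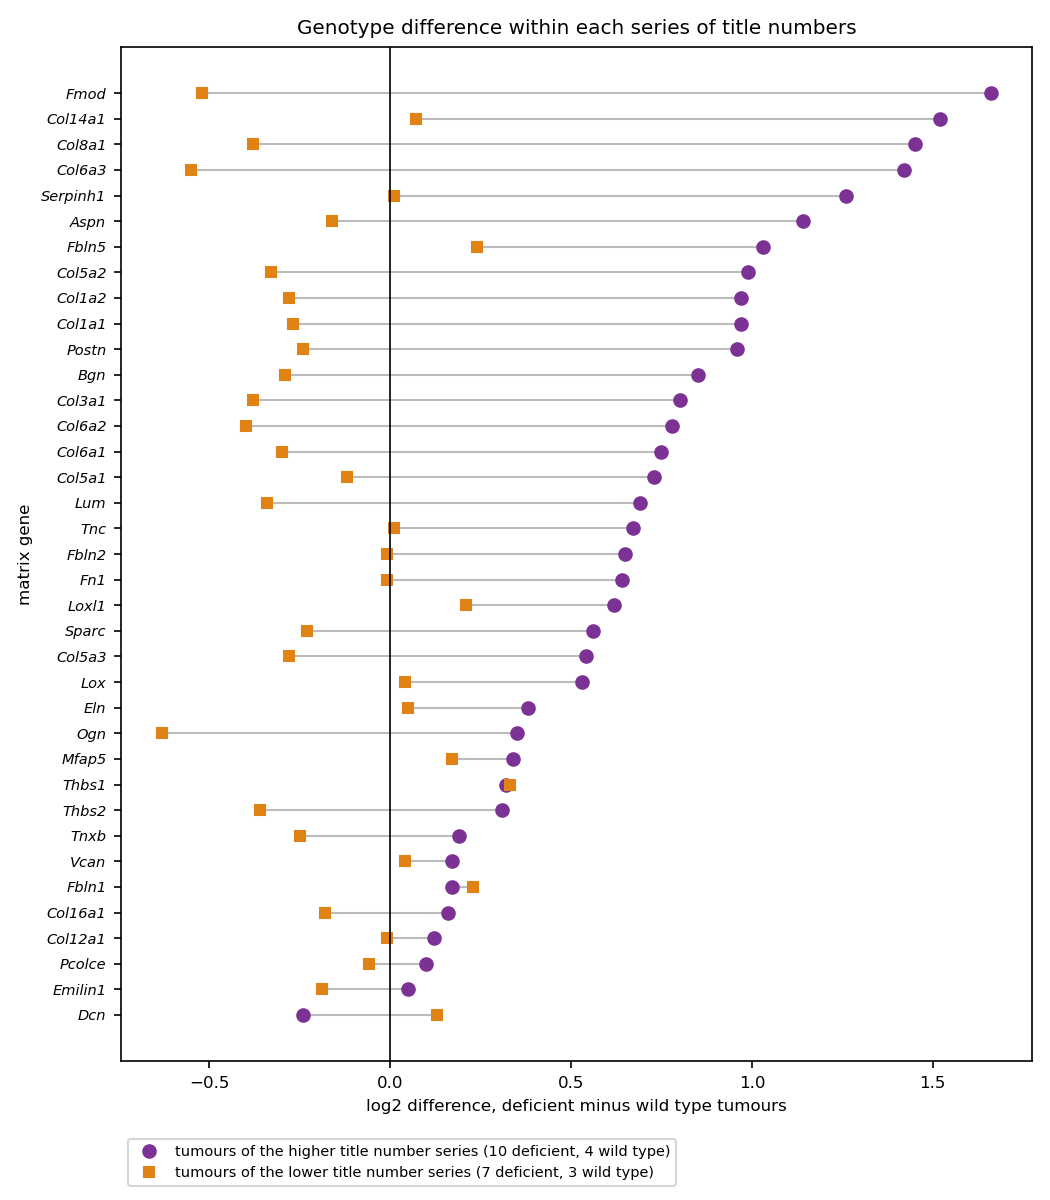
Log2 difference of each matrix gene, deficient minus wild type tumours, in the higher (circles) and the lower (squares) title number series, with a line joining both values of a gene. In the higher series all genes but Dcn are above 0, up to 1.66 for Fmod, and in the lower series 12 of 37 are.

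The series themselves, higher against lower with genotype in the model, differed in 1438 of 18193 genes (7.9%) in limma and in 2 matrix genes, both fibril-associated collagens and both higher in the higher series (4.39% of all genes were). Of the 37 matrix genes 10 were above 0 (55.8% of all genes). Col16a1 averaged 5.87 ± 0.15 (SD, n = 10) in deficient and 5.71 ± 0.16 (SD, n = 4) in wild type tumours of the higher series, against 5.36 ± 0.24 (SD, n = 7) and 5.54 ± 0.43 (SD, n = 3) in those of the lower. Its difference was 0.41 (SE 0.09, limma adjusted p = 0.00816). Col12a1 differed by 0.24 (SE 0.07, limma adjusted p = 0.0458), and did not pass in 18 of 28 alternative settings. Pcolce, at -0.58 (SE 0.22, limma adjusted p = 0.112), did not pass.

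Vessel markers stood beside the matrix values in deficient tumours. In the fit of all tumours 51.9% of all genes had a higher mean and 3.2% an unadjusted p under 0.05. All 12 endothelial markers had higher means (median 0.42) and 8 an unadjusted p under 0.05, with Ramp2 at 0.50, Emcn at 0.68 and Tie1 at 0.41. Of 12 pericyte and smooth muscle markers 9 had higher means (median 0.36) and 5 an unadjusted p under 0.05, with Notch3 at 0.45, Mcam at 0.42 and Lmod1 at 0.18. No marker passed the adjusted threshold. The endothelial list mean was 5.30 to 6.76 in deficient and 4.92 to 6.17 in wild type tumours, and its part in the matrix values was not tested. Of 15 fibroblast markers 8 had higher means (median 0.01), near the share of all genes, with Pdgfrb at 0.51, Cd248 at 0.20 and Pdgfra at -0.35. Of 44 further matrix genes 25 did (median 0.02), also near that share, with Ccn2 at 0.57, Igfbp7 at 0.45 and Comp at 0.15. Of 24 collagen synthesis genes 15 did (median 0.01), with P3h3 at -0.29, P4ha3 at 0.15 and P4ha1 at -0.24.

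In bone marrow the genotypes were compared with 3 deficient and 2 wild type samples. Limma passed 4 genes (0.022%), none a matrix gene, and 737 genes (4.05%) had an unadjusted p under 0.05, 3 of them matrix genes. Of the 37 genes 25 (67.6%) had a higher mean in deficient marrow, against 47.6% of all genes, with a median of 0.08, and 15 did without deficient marrow 2.

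Ogn, a small proteoglycan first found in bone, had the smallest p in marrow. It was 5.31, 5.91 and 4.45 in deficient marrow, against 2.96 and 3.65 in wild type marrow. The difference was 1.92 (SE 0.41, limma unadjusted p = 0.00168, adjusted p = 0.9996). Its second probe set averaged 4.02 in deficient and 3.08 in wild type marrow. Postn was 4.65, 4.99 and 4.53 in deficient and 4.12 and 4.31 in wild type marrow, a difference of 0.51 (SE 0.21). Serpinh1 was 5.00, 4.98 and 6.52 in deficient and 4.50 and 4.39 in wild type marrow, a difference of 1.06 (SE 0.44) that was 0.55 without deficient marrow 3. Thbs1, given above by sample, differed by 0.68 (SE 0.33) with overlap.

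Bone cell markers were counted in the same fit. Of 8 measured, 7 had higher means in deficient marrow (median 0.46), against 47.6% of all genes. An unadjusted p under 0.05 was reached by 4, against 4.05% of all genes. Ibsp was at 1.13, Ctsk (cathepsin K, an osteoclast protease that cleaves collagen) at 0.71 and Phex at 0.51. Phex was dim, averaging 3.26 in deficient and 2.76 in wild type marrow. Alpl was at 0.21, Sp7 at 0.04 and Mepe at -0.02. The list mean was 5.54 to 5.78 in deficient and 5.03 to 5.42 in wild type marrow. Of 12 pericyte and smooth muscle markers 6 had higher means (median -0.05), near the share of all genes, with Acta2 at 1.08 and Mcam at -0.75. Of 4 adipocyte markers 3 did (median 0.31), with Adipoq at 1.11 and Cidec at -0.19. No marker of these lists passed the adjusted threshold, and their part in the matrix values was not tested.

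The genotype difference in tumours was set against that in marrow as an interaction. Limma passed 58 genes (0.319%) and no matrix gene, and 3 matrix genes had an unadjusted p under 0.05, against 7.83% of all genes, while 25 of 37 were above 0 (52.7% of all genes). The 3 were Vcan at 1.56 (SE 0.57, limma adjusted p = 0.405), Ogn at -1.98 (SE 0.94, limma adjusted p = 0.621) and Fbln1 at 0.51 (SE 0.24, limma adjusted p = 0.631). Without deficient marrow 3, whose Vcan value was 6.94, the interaction of Vcan was 2.57 and passed, with a limma adjusted p of 0.000112. This fit too shares its variance over tumours and marrow, so that p does not measure the spread of Vcan within marrow.

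The 37 genes had 52 further probe sets. In tumours minus marrow 42 of these had the sign of the one used and 10, in 10 genes, the opposite sign. In deficient minus wild type tumours 40 had the same and 12 the opposite sign. Of the matrix genes 5 lie on chromosome 1 with Casp8, Fn1 at 12.7 Mb from it, Col5a2 at 13.3 Mb, Col3a1 at 13.4 Mb, Col6a3 at 31.9 Mb and Fmod at 75.2 Mb in GRCm38.p6, and none of them passed between genotypes.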

How the data were processed

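Expression was measured in 24 tumours and 5 marrow samples on a mouse array. Per the labels' protocols, RNA was extracted with Trizol and amplified in 2 cycles from 100 ng. The deposited log2 values, 1.87 to 14.42, were made by the authors with RMA in Partek 6.6, per the submitters' processing notes. It was not stated whether all arrays went through RMA together. A shift shared by most genes is lost in this step. The precision is limited by the number of arrays. No pair of arrays held identical values.

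Of 45101 probe sets 64 were controls, 34945 had 1 symbol, 932 several and 9160 none listed, and 34741 were named through the Entrez ID. The probe set of highest mean stood for each of 18193 genes, with no filter. Samples were grouped by labelled genotype and tissue. R 4.3.3 with limma 3.58.1 gave the differences (linear model with moderated variance, two-sided, p-values adjusted by Benjamini-Hochberg over all genes, threshold 0.05). Genotypes were fitted within each tissue, title series within tumours, and tissue and its interaction over 29 samples in 4 groups. The same fits were also run on simulated data with known changes, and the share of changes recovered is not reported here. Of 14 fixed pairs 12 were run, since 2 hold Spp1.

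The members and lists were chosen with earlier results of these data known. By rule the text names Col1a1, Col3a1, Fn1, Sparc, Postn, Tnc and Dcn, the 4 members of smallest p by genotype in each tissue, up to 6 of largest difference in each direction that passed between tissues, the 3 of smallest p in each interaction, title series and list, the 5 of largest and 3 of smallest SD, and Casp8. Other genes were chosen after their values were seen. Alternatives were the mean of probe sets, a mean log2 filter of 5, repeated quantile normalisation, trend and robust variance, array weights, covariates, subsets and leaving out samples. The exclusion of muscle-rich tumours and leave-one-out fits of the title series were chosen after seeing the data. Figures were drawn with matplotlib 3.10.9.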

Additional observations from a re-analysis of the deposited data

Results flagged for a closer look

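Among the 7 wild type tumours, 5 of 38 genes had a sample whose gap to the nearest other, divided by the range, passed Dixon's 95% critical value of 0.568, where chance gives about 1 in 20. Wild type tumour 1 was the high sample of 4 of them, at 6.57 for Tnc (nearest 5.06, ratio 0.614), 5.15 for Tnxb (nearest 4.12, 0.628), 5.93 for Thbs2 (nearest 4.62, 0.665) and 6.39 for Ogn (nearest 3.99, 0.660). Wild type tumour 7, of high skeletal muscle signal, was the low sample for Fbln2, at 5.83 (nearest 7.37, 0.696). The other groups were too large or too small for this test.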

How the results depend on the processing

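With the lower title number series alone, 12 of 37 genes were higher in deficient tumours, the median was -0.18, and Col1a1 (-0.27), Col3a1 (-0.38), Fn1 (-0.00901), Sparc (-0.23), Postn (-0.24) and Dcn (0.13) changed sign. Dcn also changed sign with array weights (0.18), with RNA quality as a covariate (0.14) and between -0.35 and 0.34 when tumours were left out in turn. In tumours against marrow, the mean of probe sets gave a median of 0.53, and wild type samples alone gave 19 genes past the threshold. By title series 1 gene passed with the mean of probe sets and 1 with trend and robust variance. Leaving out samples in turn gave 1 to 2 genes past the threshold and 7 to 18 above 0 by title series, 15 to 27 above 0 in marrow, 0 to 1 past the threshold in the interaction of tissue and genotype, and a median of 0.23 to 0.99 in that of series and genotype. Casp8 ran from -0.0962 to 0.23 in the interaction with tissue and from -0.25 to 0.59 in that with series. The causes were not tested. Leaving out a marrow sample can leave 1 wild type sample, assumed to vary like the rest. No paired analysis was possible because the replicate numbers name samples and pair none. The 2 pairs with Spp1 were not run.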
